A study of Mus musculus with 6 samples.

Results

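Genes that sense foreign or misplaced RNA in the cytosol, and genes of the type I interferon response, were followed in mouse presomitic mesoderm, the tail tissue that later divides into somites. The members are 9 listed genes, read through probe sets that the platform annotation pairs with no other gene symbol. Of these, 8 were measured, each by 1 probe set, among 15153 genes on the arrays. Isg15 was left out because its probe set carries a further symbol. Mutant embryos were TCre/+;Taf10flox/flox, and control embryos were labelled WT and were either Taf10Flox/+ or Taf10flox/flox. Each of the 3 mutant and 3 control arrays read RNA pooled from 3 presomitic mesoderms of E9.5 embryos with 17 to 19 somites. T-Cre is a Cre driven by Brachyury regulatory sequence, active in the primitive streak and the mesoderm that leaves it. No Cre is listed for the controls, so effects of the driver and of Taf10 loss cannot be told apart, and the controls may mix embryos with 1 and both alleles floxed.

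In the textbook pathway, the helicases RIG-I (gene Ddx58) and MDA5 (gene Ifih1) bind viral or unedited double-stranded RNA and signal through the mitochondrial adaptor MAVS to kinases that switch on interferon genes. Secreted interferon then acts through its receptor and the JAK kinases on the factor ISGF3, which contains STAT2 and IRF9 and binds the interferon-stimulated response element in promoters. Many sensors, factors and effectors, including most of the members here, are themselves interferon stimulated genes.

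The arrays had median intensities from 307.9 to 317.5. Mutant 3 lay apart, with a root mean square distance of 0.176 log2 units from its group mean, against 0.0983 and 0.108 for the other mutants and 0.0758 to 0.0904 for the controls. Taf10, read by its brighter probe set, fell by 0.37 on the log2 scale in mutants (SE 0.08, limma adjusted p = 0.0400), a call lost on leaving out any array but mutant 3 (adjusted p of 0.0641 to 0.169). The dimmer Taf10 probe set changed by 0.11 in log2 with an SE of 0.10 (limma adjusted p = 0.530), and which part of the transcript either reads is not known here. The 11 measured presomitic markers spanned log2 intensities from 6.13, for Cyp26a1, to 12.77. The brightest of them, Tbx6, Hes7, Msgn1, Dll1 and Dll3, were read between 10.47 and 12.77 on every array. Of 11 measured presomitic markers, Tbx6 (log2 0.63) and Hes7 (log2 0.52) rose and Cyp26a1 (log2 -0.74) fell. Leaving out control 1 ended all 3 calls (limma adjusted p of 0.0501 to 0.080), and leaving out control 2 ended those of Tbx6 and Hes7 (adjusted p of 0.0833 and 0.0626). The summed intensity of all 11 markers, set mostly by the brightest of them, was 25396 to 27823 in mutants and 20552 to 21795 in controls. The part of this shift in the results was not tested. Of 10 macrophage markers, cells that could carry interferon stimulated transcripts, 0 passed limma's test, and their log2 intensities lay between 5.55 and 8.47. The summed intensity of these markers was 1139 to 1215 in mutants and 1107 to 1127 in controls, so the groups did not overlap, and the part of this difference in the results was not tested. Summed endothelial markers ranged from 978 to 1765 in mutants and from 1098 to 2450 in controls, and erythroid markers from 4499 to 17129 in mutants and from 9742 to 23055 in controls, with 0 of 10 and 0 of 8 called. Of 8 lateral and intermediate mesoderm markers 1 rose, Lhx1, a transcription factor gene of kidney precursors, with log2 8.43, 8.57 and 8.55 in mutants, against 7.41, 7.48 and 7.50 in controls (2.08-fold, SE 0.07 in log2, limma adjusted p = 0.00158). It was called in all 10 alternatives and 6 leave-outs, and its part in the results was not tested. Summed intensities of these 8 markers overlapped, at 4283 to 5792 in mutants and 4656 to 5367 in controls. Of 7 neural tube and 9 gut and surface ectoderm markers 0 were called, with overlapping sums. The other markers with the smallest p of each type did not pass, with log2 changes of 0.16 for Pax2, 0.12 for Cd68, 0.10 for Aif1, 0.12 for Neurog2, 0.08 for Sox1, -0.28 for Krt8, 0.07 for Noto, -1.25 for Emcn, -0.30 for Tek, -0.19 for Klf1 and -0.60 for Hbb-y. In RNA from whole tissue, more cells that express a gene and more RNA per cell cannot be told apart.

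The sensor gene Ddx58 rose in mutant presomitic mesoderm. Its intensity was 1125, 1096 and 1125 in mutants 1, 2 and 3, against 588, 650 and 652 in controls 1, 2 and 3. On the log2 scale these values average 10.12 ± 0.02 in mutants and 9.30 ± 0.08 in controls (SD, n = 3 each). Every mutant lay far above every control, and the mutant values were closer together than the control values. The log2 change of 0.83 (SE 0.07, 95% interval 0.67 to 0.98) is a 1.77-fold rise with a limma adjusted p of 0.00252, and 449 of all genes (2.96%) rose by the same test. Permuting the 6 arrays exactly, two-sided, gives p = 0.1, and a comparison of 3 with 3 can go no lower.

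Ifih1, which encodes the other cytosolic sensor of double-stranded RNA, did not pass. Its log2 intensities were 5.59, 5.64 and 5.60 in mutants, against 5.48, 5.57 and 5.56 in controls. The mutants lay above the controls by a narrow margin, with a log2 change of 0.08 (SE 0.06, 95% interval -0.06 to 0.22, limma adjusted p = 0.486). The intensities of 44.6 to 49.8 are near the bottom of the deposited values, the lowest of which is 20.5, and the files hold no detection call that would tell whether they exceed background. Taken within each array, the Ddx58 minus Ifih1 difference in log2 intensity was 4.51 ± 0.05 in mutants and 3.76 ± 0.04 in controls (SD, n = 3 each). It was larger by 0.75 in mutants with no overlap (exact permutation p = 0.1, adjusted p = 0.15 over 3 such differences), which does not pass, and Ifih1's part in it is read near the bottom of the scale.

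**Figure D1:**
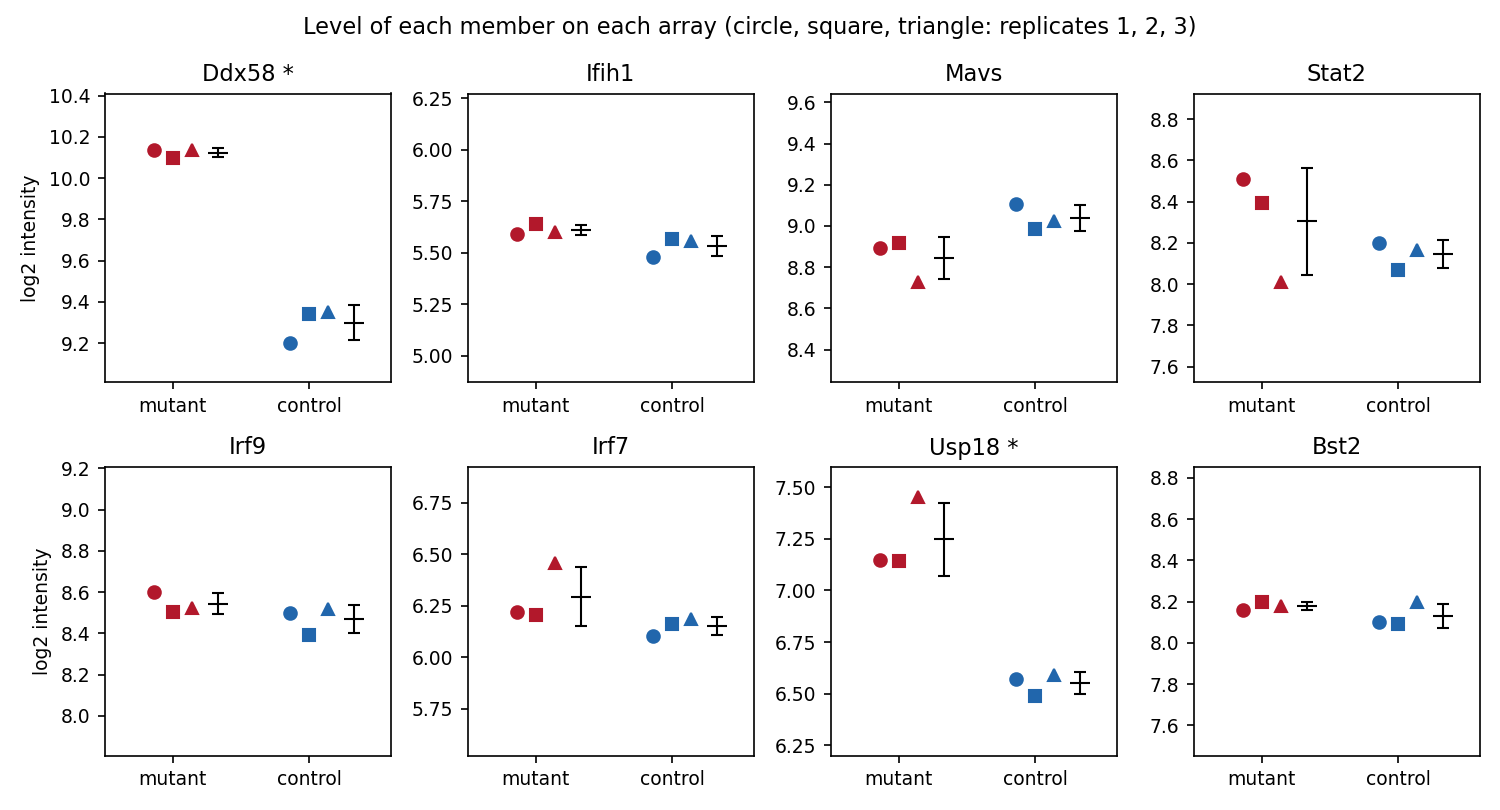
Log2 intensity (y axis, the same span in every panel) of the 8 measured members on each mutant (red, left) and control (blue, right) array. Each point is an array, bars give the mean ± SD of 3 arrays, and a star marks a limma adjusted p under 0.05. Ddx58 and Usp18 carry the star, at log2 changes of 0.83 and 0.70.

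Promoter windows from RefSeq (build GRCm38.p6, 250 bases before to 50 after each start) were searched on both strands for the core of the interferon response element, GAAANNGAAA. Windows were found for 8 of the 9 listed members, all but Usp18, and 5 of them held it, those of Ddx58, Ifih1, Isg15, Stat2 and Bst2. Of all 27025 genes with a window 3.99% had a window with this core, as did 27 of 65 interferon stimulated genes from a list drawn up for this tissue comparison (41.5%). A shorter form with 1 base between the repeats, GAAANGAAA, was added after the windows were seen, as was the choice of stretches printed here, and occurs in windows of 3.7% of genes. It lay in the windows of Ddx58, Isg15 and Stat2 among the 8 members with a window and of 10 of the 65 interferon stimulated genes (15.4%). The 250 bases upstream of Ddx58 are shown because this gene rose, on the minus strand of chr4:40239826-40240075, with the shorter form in capitals, beginning at -60 from the start (the first base of the transcript is 1).
Ddx58 upstream: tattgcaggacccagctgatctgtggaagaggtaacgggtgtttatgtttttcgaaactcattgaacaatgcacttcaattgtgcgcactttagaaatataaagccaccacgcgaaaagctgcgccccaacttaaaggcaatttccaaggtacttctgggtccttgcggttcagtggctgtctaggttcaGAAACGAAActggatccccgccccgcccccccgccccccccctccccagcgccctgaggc

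Stretches of 30 bases around the core in each member's window set Ddx58, which rose, beside Ifih1, Stat2 and Bst2, which did not pass. Isg15, which was outside the main comparison, is shown too. All are in the gene's own 5′ to 3′ direction with the match in capitals. A match written TTTC lies on the opposite strand. For Isg15 and Bst2 1 of several overlapping matches is shown. The matches shown begin at 3 in Ddx58 and 33 in Ifih1, after the start. Those of Isg15 (-72), Stat2 (-222) and Bst2 (-124) lie upstream of it.
Ddx58 (chr4:40239804-40239833, minus strand): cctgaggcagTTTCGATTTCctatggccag
Ifih1 (chr2:62646206-62646235, minus strand): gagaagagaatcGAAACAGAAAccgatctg
Isg15 (chr4:156200871-156200900, minus strand): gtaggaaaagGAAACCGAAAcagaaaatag
Stat2 (chr10:128270266-128270295, plus strand): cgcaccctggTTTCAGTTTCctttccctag
Bst2 (chr8:71537577-71537606, minus strand): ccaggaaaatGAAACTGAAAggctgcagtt
The core was thus present in the window of Ddx58, which rose, and in those of Ifih1, Stat2 and Bst2, which did not pass, and a match describes letters in a window and not a bound site. The windows of Mavs, Irf7 and Irf9 held neither form.

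Mavs, the adaptor that both sensors use on the mitochondrial surface, had a negative change that did not pass. Log2 intensities were 8.89, 8.92 and 8.73 in mutants, against 9.11, 8.98 and 9.02 in controls. All mutants lay below all controls, with mutant 3 lowest, and the log2 change was -0.19 (SE 0.08, 95% interval -0.37 to -0.02, limma adjusted p = 0.182). The difference between Ddx58 and Mavs within an array was larger in mutants by 1.02 log2 units (exact permutation p = 0.1, adjusted p = 0.15 over 3 such differences).

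The factors that act below the interferon receptor did not pass. Stat2, which with IRF9 gives ISGF3 its specificity, was at log2 8.51, 8.39 and 8.01 in mutants, against 8.20, 8.07 and 8.16 in controls. Mutants 1 and 2 lay above all controls and mutant 3 below them. The log2 change was 0.16 (SE 0.12, 95% interval -0.13 to 0.45, limma adjusted p = 0.479). Without mutant 3 it was 0.31 with a limma adjusted p of 0.0210.

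Irf9, the DNA-binding subunit of ISGF3, was at 8.60, 8.51 and 8.53 in mutants, against 8.50, 8.39 and 8.52 in controls. These groups overlapped, with a log2 change of 0.07 (95% interval -0.08 to 0.23, limma adjusted p = 0.541). Irf7, the factor that amplifies type I interferon transcription, was at log2 6.22, 6.21 and 6.46 in mutants, against 6.10, 6.16 and 6.19 in controls. Its groups did not overlap, mutant 3 stood highest, and the log2 change of 0.14 (SE 0.08, 95% interval -0.05 to 0.34) did not pass (limma adjusted p = 0.353).

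Usp18 rose. Its product strips the ubiquitin-like protein ISG15 from targets and also damps signalling at the interferon receptor. Intensities were 142, 141 and 175 in mutants, against 95.1, 89.9 and 96.3 in controls. Mutant 3 was highest, and the lowest mutant was still well above the highest control. On the log2 scale the means were 7.25 ± 0.18 in mutants and 6.55 ± 0.05 in controls (SD, n = 3 each), a 1.62-fold rise (log2 0.70, SE 0.10, 95% interval 0.48 to 0.92, limma adjusted p = 0.00973). Leaving out control 1 (adjusted p = 0.0637) or control 2 (adjusted p = 0.0682) ended the call, at log2 changes of 0.71 and 0.67. The Ddx58 minus Usp18 difference within arrays was larger in mutants by 0.13 with overlapping groups (exact permutation p = 0.3, also after adjustment).

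Bst2, which encodes the membrane protein tetherin that holds budding virus on the cell surface, was at log2 8.16, 8.20 and 8.18 in mutants, against 8.10, 8.09 and 8.20 in controls. The groups overlapped, with a change of 0.05 (SE 0.06, 95% interval -0.10 to 0.19, limma adjusted p = 0.668).

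In all, 2 of the 8 measured members rose, 0 fell and 6 did not pass, where 897 of all genes (5.92%) changed, 2.96% in each direction. At an unadjusted p under 0.05 limma gave 3 members, with 22.7% of all genes. Groups did not overlap for 5 members, 4 higher and 1 lower in mutants, against 32.3% of all genes, 17.2% higher and 15.1% lower. The members' median log2 change was 0.11, against 0.03 over all genes. The genes whose 6 array values were most like the mean of the members' centred values were Ak8, Eno3, Cog4, Caprin2 and Invs. Their Pearson correlations were 0.996 to 0.999 over 6 arrays, and all share the contrast between mutants and controls. In that mean the changes of Ddx58 (log2 0.83) and Usp18 (log2 0.70), the largest among the members, weigh most. Eno3, Cog4, Caprin2 and Invs were called higher, and Ak8 did not pass (log2 0.12, limma adjusted p = 0.269).

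Beyond the members, 1 further gene of RNA sensing rose. Trim25, an E3 ligase for RIG-I that also conjugates ISG15, was at log2 7.34, 7.20 and 7.24 in mutants, against 7.02, 6.86 and 6.88 in controls. The groups did not overlap, and the gene rose 1.26-fold (log2 0.34, SE 0.07, limma adjusted p = 0.0405). This call was lost on leaving out any array but mutant 3, and after quantile normalization (adjusted p = 0.120). With all arrays 2.96% of all genes rose. Of 15 measured sensors and direct regulators, Ddx58 and Trim25 rose, 0 fell and 13 did not pass, with a median of 0.08. Among those that did not pass were Pcbp2, which promotes MAVS degradation (log2 -0.18), Adar, the editing enzyme that marks self RNA (log2 -0.11), and Eif2ak2, which encodes the RNA-dependent kinase PKR (log2 0.24).

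Among adaptors, kinases and transcription factors below the sensors, 1 of 18 rose and 0 fell (median 0.00), where 2.96% of all genes rose. Rela, the NF-κB subunit p65, rose 1.38-fold, with log2 levels of 9.28, 9.25 and 9.35 in mutants, against 9.0, 8.59 and 8.90 in controls (log2 0.46, SE 0.11, limma adjusted p = 0.0458). Control 2 was lowest and the groups did not overlap, but the call was lost on leaving out any array but mutant 3 (adjusted p of 0.0868 to 0.127), with a trend in eBayes and with the adjustment over all probe sets. The Toll-like receptor adaptor gene Myd88 (log2 0.39, limma adjusted p = 0.0730), Tank (log2 0.21) and the kinase gene Ikbke (log2 -0.18) did not pass.

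In the list of interferons, their receptors and the JAK-STAT pathway, Usp18 was the 1 call among 26 genes (median 0.11). Of all genes 5.92% changed, 2.96% in each direction. Tyk2, the kinase bound to the type I receptor, was at log2 8.45, 8.20 and 8.52 in mutants, against 7.89, 7.97 and 8.11 in controls, and just missed the threshold (log2 0.40, SE 0.10, limma adjusted p = 0.0587). Its groups did not overlap. The phosphatase gene Ptpn2 (log2 -0.19), Il10rb (log2 0.24) and Stat3 (log2 -0.16) did not pass. Of 8 genes for ISG15 conjugation and removal, Usp18 and Trim25 rose and Usp5, a deubiquitinase gene, fell to 77.9% of control (log2 -0.36, SE 0.08, limma adjusted p = 0.0371), a call lost on leaving out any array but mutant 3. Uba7, the ISG15-activating enzyme (log2 0.23), and Arih1 (log2 0.14) did not pass.

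Of 61 measured interferon stimulated genes, 3 rose, which were Ddx58, Usp18 and Trim25, 0 fell and 58 did not pass. This share of 4.92% is set against 2.96% of all genes that rose. It includes the members Ddx58 and Usp18, which were chosen with earlier results of these data known. Among the 54 genes of the list that are not members, 1 rose, 0 fell and 53 did not pass. The genes with the next smallest p were Shisa5, an endoplasmic reticulum protein gene (log2 0.31, limma adjusted p = 0.0508), Samhd1, a nucleotide-degrading restriction factor (log2 0.23, adjusted p = 0.0679), and the repressor gene Irf2 (log2 -0.33, adjusted p = 0.0762). Ifit1, a classical effector that binds viral RNA ends, was at log2 5.66, 5.68 and 5.77 in mutants, against 5.50, 5.73 and 5.53 in controls, and these groups overlapped (limma adjusted p = 0.442). It was singled out as a well-known gene of the list, after its values were seen.

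The list's median log2 change was 0.09, with 50 of 61 changes positive, against 0.03 and 59.3% positive over all genes. Level moved with the change over all genes. Genes under the 40th percentile of level, which hold 40 of the 61, had a median change of 0.06 over all 6231 such genes, with 75.8% positive, and over the 8922 other genes it was -0.01, with 47.8% positive. The median of the low genes relative to the control mean was 0.15 in mutant 3 and 0.01 and 0.03 in mutants 1 and 2. The 40 interferon stimulated genes under the percentile had a median change of 0.09, with 85% positive. The 21 over it had a median of 0.12, with 76.2% positive. The part of level in the list's change was not tested. Ddx58 lay over that percentile and Usp18 under it.

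**Figure D2:**
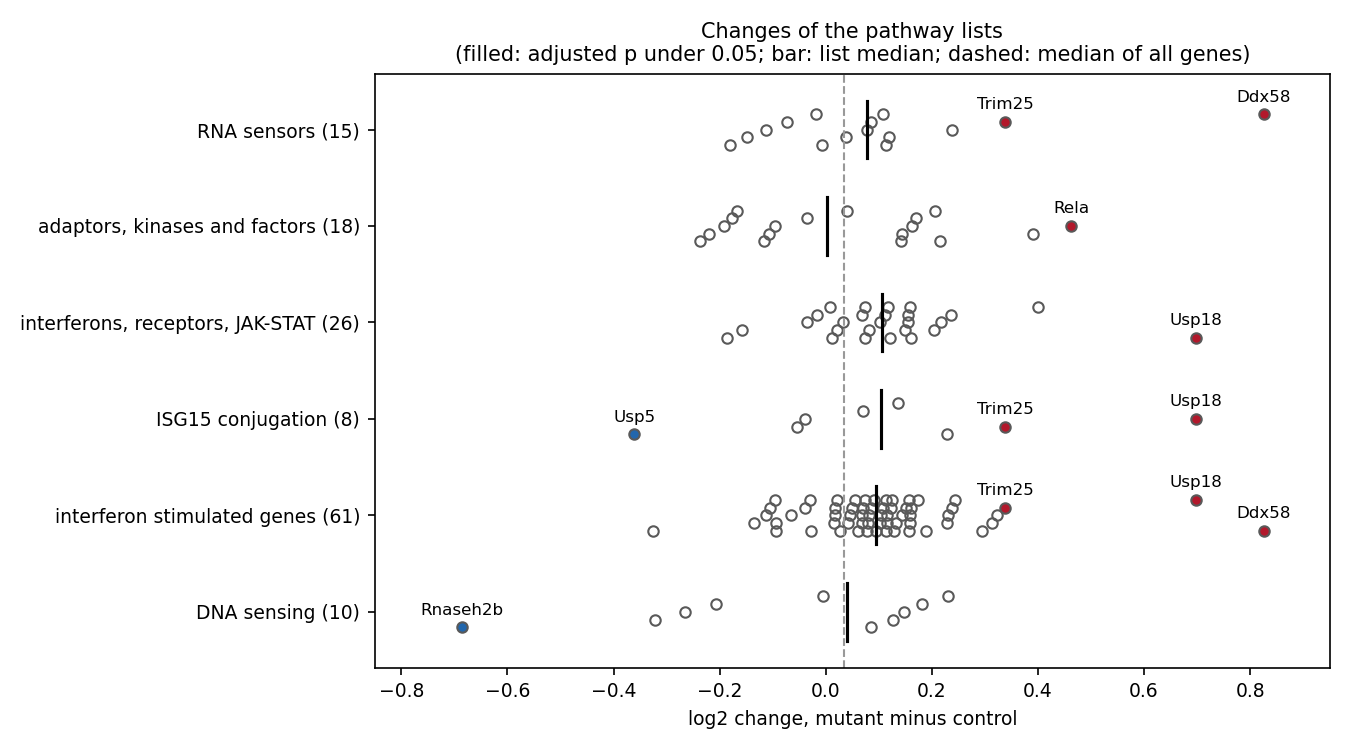
Log2 change, mutant minus control (x axis), of every measured gene in 6 lists (rows, with the number measured). Each point is a gene, filled where the limma adjusted p is under 0.05 (red higher, blue lower), bars are list medians and the dashed line is the median of all genes. Ddx58 at 0.83 and Usp18 at 0.70 stand clear of the other points on their lists, and Rnaseh2b at -0.69 is the lowest.

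Among 10 genes of DNA sensing and nucleic acid clearance 1 fell and 0 rose, where 2.96% of all genes fell. Rnaseh2b, a subunit of the enzyme that removes ribonucleotides from DNA, was at log2 9.19, 9.06 and 8.99 in mutants, against 9.86, 9.83 and 9.61 in controls. Every mutant lay below every control, and the gene fell to 62.2% of control (log2 -0.69, SE 0.09, limma adjusted p = 0.00878). Leaving out control 1 (adjusted p = 0.0637) or control 2 (adjusted p = 0.0675) ended the call. The genes of the other RNase H2 subunits, Rnaseh2a (log2 0.15, adjusted p = 0.252) and Rnaseh2c (log2 0.18, adjusted p = 0.266), did not pass by limma and had changes of the other sign. They were named after their values were seen. Samhd1 (log2 0.23, limma adjusted p = 0.0679), Sting1, the adaptor of cytosolic DNA sensing (log2 -0.32, adjusted p = 0.112), and Mre11a, a nuclease of DNA break repair (log2 -0.27, adjusted p = 0.147), did not pass. Over the 10 genes 5 changes were positive and 5 negative, with a median of 0.04.

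Several genes of interferon signalling split between mutants 1 and 2 and mutant 3, and were named after their values were seen. Ifnar1, a receptor chain of type I interferon, was at log2 10.32, 10.36 and 9.92 in mutants 1, 2 and 3, against 10.07, 10.05 and 10.11 in controls. Jak1, the kinase of its partner chain, was at 10.28, 10.23 and 9.90 in mutants, against 9.96, 10.01 and 9.96 in controls. Eif2ak2 was at 7.75, 7.74 and 7.23 in mutants, against 7.27, 7.33 and 7.40 in controls. With Stat2, these genes had mutants 1 and 2 above all controls and mutant 3 below all of them. This arrangement held for 639 of all genes (4.22%), for 2 of the 61 interferon stimulated genes, for 5 of the 26 genes of the receptor list and for 2 of the 15 sensors. Jak2 and Ptpn11 of the receptor list and Cyld of the sensor list had it too. Unlike the genes described above, these did not pass in the fit without mutant 3.

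**Figure D3:**
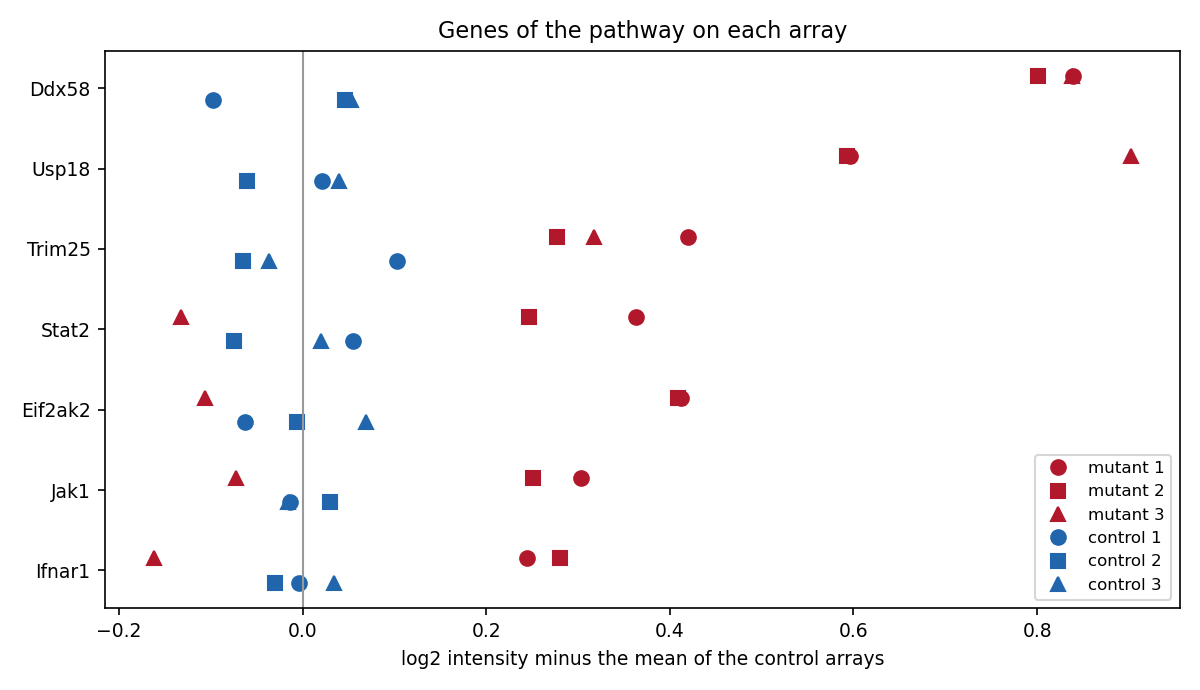
Log2 intensity relative to the control mean (x axis) for 7 genes (rows), with mutant arrays in red above and control arrays in blue below, and the shape giving the replicate number. For Stat2, Eif2ak2, Jak1 and Ifnar1 the mutant 3 triangle lies left of all controls while mutants 1 and 2 lie right of them, and for Ddx58, Usp18 and Trim25 all 3 mutants lie right.

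Without mutant 3, 1945 of all genes changed (12.8%), 6.41% higher and 6.43% lower. Stat2 then joined Ddx58 and Usp18, so 3 of 8 members rose. Ifnar1 (log2 0.26, limma adjusted p = 0.0175), Jak1 (log2 0.28, adjusted p = 0.0145) and Eif2ak2 (log2 0.41, adjusted p = 0.00553) passed as higher in that fit, and 10 of the 61 interferon stimulated genes rose (16.4%) with 0 lower. These were Ddx58, Usp18, Eif2ak2, Oas1b, Trim25, Stat2, Shisa5, Samhd1, Irf8 and Trafd1. Sting1 passed as lower (log2 -0.40, adjusted p = 0.0268). The fit without mutant 3 rests on 2 mutant arrays. Ifnar1, Jak1 and Eif2ak2 were picked out above because mutant 3 lay below all controls and the other mutants above them. Without mutant 3 every remaining mutant then exceeds every control by selection. The adjusted p of Ifnar1, Jak1 and Eif2ak2 in that fit is therefore no separate evidence of a rise. Stat2, a listed member, has the same arrangement. Its call in that fit carries this limit too, as do the counts of 3 members and 10 interferon stimulated genes that include it.

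Ddx58 was called with each of the 6 arrays left out in turn, with a log2 change of 0.78 to 0.85 and a limma adjusted p of 0.000854 to 0.0274. Usp18 was called in 4 of the 6 such fits, at 0.59 to 0.75, and Trim25 in 1.

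**Figure D4:**
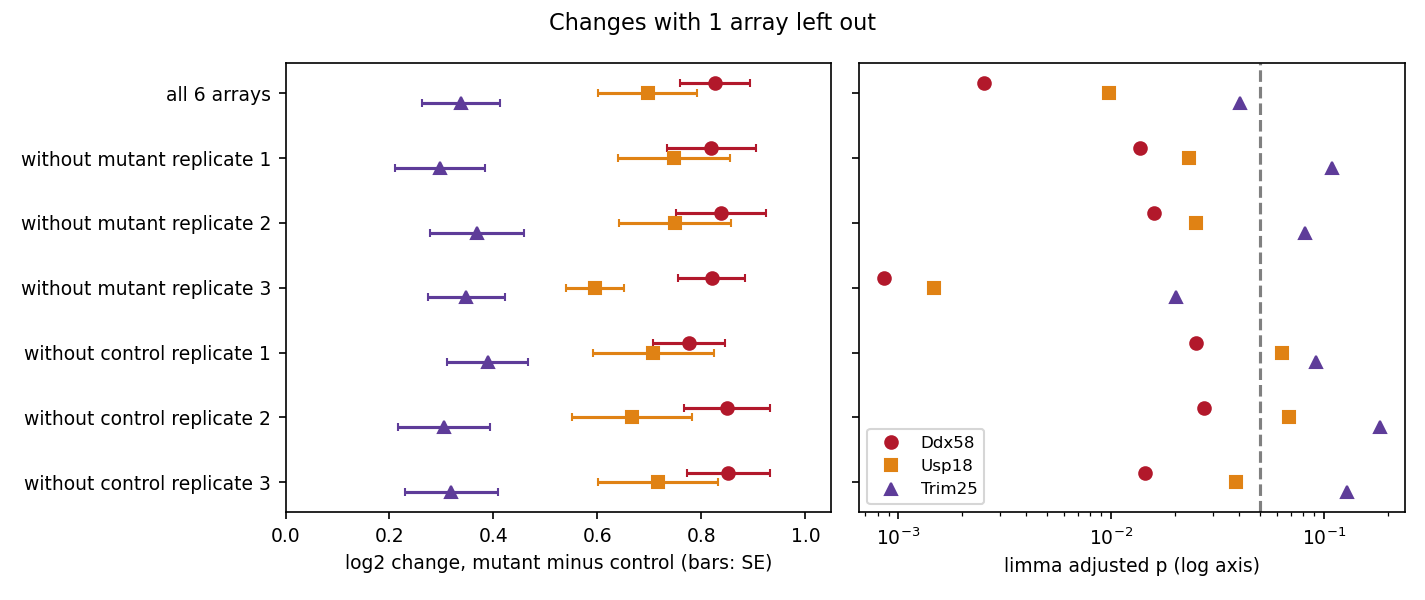
Log2 change of Ddx58, Usp18 and Trim25 with its SE (left) and limma adjusted p on a log axis (right) with all 6 arrays and with each array left out (rows). The dashed line marks an adjusted p of 0.05, which Ddx58 passes in every row, while Usp18 lies to its right without control 1 or 2.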

How the data were processed

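Total RNA (150 ng) was turned into biotinylated cDNA and read on 1 array per pool, per the labels' protocols. The deposited values are RMA intensities on a linear scale, per the submitters' processing notes and the range of the values (20.5 to 21070). The sources used here do not give RMA's version or any filter. Of 18064 probe sets, 16311 have 1 gene symbol, 734 several and 1019 none. Log2 intensities were compared between mutant and control arrays by limma (version 3.58.1, R version 4.3.3; lmFit, then eBayes, with neither covariate nor filter), adjusted by Benjamini and Hochberg over the 16311, and called at an adjusted p under 0.05. The probe set with the highest mean stood for a gene. For 16284 probe sets the gene ID matched RefSeq (GRCm38.p6), which changed 0 symbols. The fit was tested on simulated data.

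The members and lists were chosen with earlier results of these data known. Named are all members, called list genes, and those with the smallest p (at most 4 a list and 2 a marker type), with exceptions stated. The pools are labelled biological replicates, so p-values rest on the spread among pools. The number of arrays limits the precision. Alternatives were a replicate block, 2 normalizations, a filter on level, 2 forms of eBayes, array weights, all probe sets, a pseudocount of 16, averaged probe sets and each array left out.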

Additional observations from a re-analysis of the deposited data

Results flagged for a closer look

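Probe sets paired with several symbols were outside the main comparison. Of 14 such probe sets that carry a listed gene, 1 was called. With the same adjustment over all probe sets 855 of 15153 genes changed, and 5.92% did in the main comparison. Probe set 10505876, paired with 6 symbols, the listed interferon gene Ifnz among them, was at log2 8.46, 8.26 and 8.58 in mutants, against 8.01, 8.06 and 8.06 in controls. All mutants lay above all controls, and log2 intensity was higher by 0.39 (SE 0.09), with a limma adjusted p of 0.0480 over all 18064 probe sets. Which of the genes it reads is not known here. The probe set that carries Isg15 was among the 14 and was not called.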

How the results depend on the processing

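Across the 10 alternatives beside the leave-outs, Ddx58 was called in 10 (log2 change 0.79 to 0.86) and Usp18 in the 9 that tested it (0.61 to 0.70). The level filter removed Usp18, Irf7 and Ifih1 and left 1 called member of 5. With array weights 3608 of all 15153 genes changed (1870 higher, 1738 lower), as did 15 of the 61 interferon stimulated genes (13 higher, 2 lower). Stat2 was then called beside Ddx58 and Usp18. With 1 array left out the number of changed genes was 41 to 1945, of called members 1 to 3 and of called interferon stimulated genes 1 to 10. The lowest counts came without control 1 (41 genes, 1 member) and control 2 (67 genes, 1 member). Hbb-y, an erythroid marker that did not pass, turned to 0.19 with array weights and ranged from -0.964 to 0.0793 in log2 change with 1 array left out, with the sign turned without mutant 3 (-0.60 with all arrays). The cause of these shifts was not tested. With the replicate number as a block, 1084 genes, 2 members and 4 interferon stimulated genes changed (Shisa5 added, adjusted p = 0.0388), and Myd88 (0.0282) and Tyk2 (0.0410) passed. The design text names no covariate, so the replicate numbers were not taken as pairs. The deviations of same-numbered arrays correlated at 0.12, 0.05 and 0.29, and whether the numbers pair the pools is not known here. Taf10 lost its call with averaged probe sets (log2 -0.13, adjusted p = 0.272). Without a detection call, small changes of weakly read genes such as Ifih1 and Ifit1 could not be told from background.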
